A study of Mus musculus with 4 samples.

Results

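This account describes the ribosomal RNA (rRNA) genes of the mouse in 2 ChIP-seq libraries of HA-tagged human WDR5 (HA-hWDR5), a WD40-repeat protein known as a shared subunit of histone H3 lysine 4 methyltransferase complexes. Members were all genes that the RefSeq annotation of GRCm38.p6 (the build mm10) gives the biotype rRNA on chromosomes 1 to 19. There were 61 of them among 47042 annotated genes, and 48 lie in 1 array within 1 Mb of chromosome 8. The cells were embryonic stem cells with the Rx:GFP knock-in, differentiated into embryoid bodies by SFEBq in 5% KSR, with 2% Matrigel from day 1, and crosslinked with disuccinimidyl glutarate and paraformaldehyde. All cells lacked mouse Wdr5 and carried a doxycycline-inducible HA-hWDR5, so no group had the mouse protein. Doxycycline was added at T12h in one group and at T48h in the other, and each group had 1 ChIP library and 1 input library. The series title and design place the embryoid bodies at day 6. The starting event of these hours is not given in the labels, nor is it stated whether the line is 1 clone. The peak lists hold no expression values, so the cell type was not checked against marker genes. With 1 ChIP library per time there is no replicate error, and no difference between the times was tested.

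The 5S rRNA is the small RNA of the large ribosomal subunit. It is transcribed by RNA polymerase III from promoter elements inside the gene itself, and in the mouse most of its genes stand in a tandem array. The 28S, 18S and 5.8S rRNAs come instead from a long precursor made by RNA polymerase I, and most of these repeats are missing from the assembled chromosomes. The 4.5S RNA is a small polymerase III transcript of rodents whose genes are also tandemly repeated. Of the 61 members, 59 were taken as 5S genes by length alone, 1 is Rn4.5s and 1 is Rn28s1, a fragment of the 28S gene.

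A gene was counted as having a gene-end peak where a summit lay within 1 kb of either of its ends. Of the 61 rRNA genes, 16 had such a peak at T12h (26.2%, exact binomial 95% interval 15.8 to 39.1) and 8 at T48h (13.1%, 5.84 to 24.2). Of all annotated genes on the same chromosomes, 1.82% had one at T12h and 0.689% at T48h. The array held 15 of the 16 genes at T12h and 7 of the 8 at T48h. The only gene counted at both times was n-R5s117, so 23 genes were counted at one time or the other. The intervals cover counting error alone and treat genes as independent, although neighbours in the array share peaks and near-identical sequence.

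The array is so regular that the 1 kb rule says little about single genes within it. It spans 85.0 kb (chromosome 8, 123538784 to 123623745) and holds 51 5S copies, of which 48 are rRNA genes of 119 or 121 bp and 3 are annotated as pseudogenes (n-R5s127, Rn5s-ps1 and Gm23647). The starts of neighbouring copies are 1665 to 1727 bp apart, with a median of 1698 bp. As a result 96.2% of the bases of the array lie within 1 kb of an end of an rRNA gene, and nearly any summit in the array counts for at least 1 gene. The copies themselves make up 7.20% of the bases. The number of genes counted thus mostly restates how many peaks were called in the array. The farthest gene counted at T12h was Gm22109, at 862 bp from its nearest summit, and the nearest one not counted was n-R5s114 at 1016 bp. At T48h these were Gm25212 at 367 bp and n-R5s144 at 1198 bp.

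At T12h, 15 peaks lay in the array, between 16.7 and 85.4 kb from its start, and covered 20.4% of it. At T48h there were 7 peaks, of which the first began 1.05 kb before the first copy and the last ended at 77.7 kb, and they covered 16.9%. The first copies of the array had no T12h peak, while the T48h list had peaks at n-R5s100, the first copy, and at n-R5s107. T12h peaks overlapped 11 rRNA genes and 2 pseudogenes of the array, and T48h peaks overlapped 10 rRNA genes. How reads that match several copies were placed is not given in the sources used here, so a peak cannot be tied firmly to the copy under it.

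**Figure D1:**
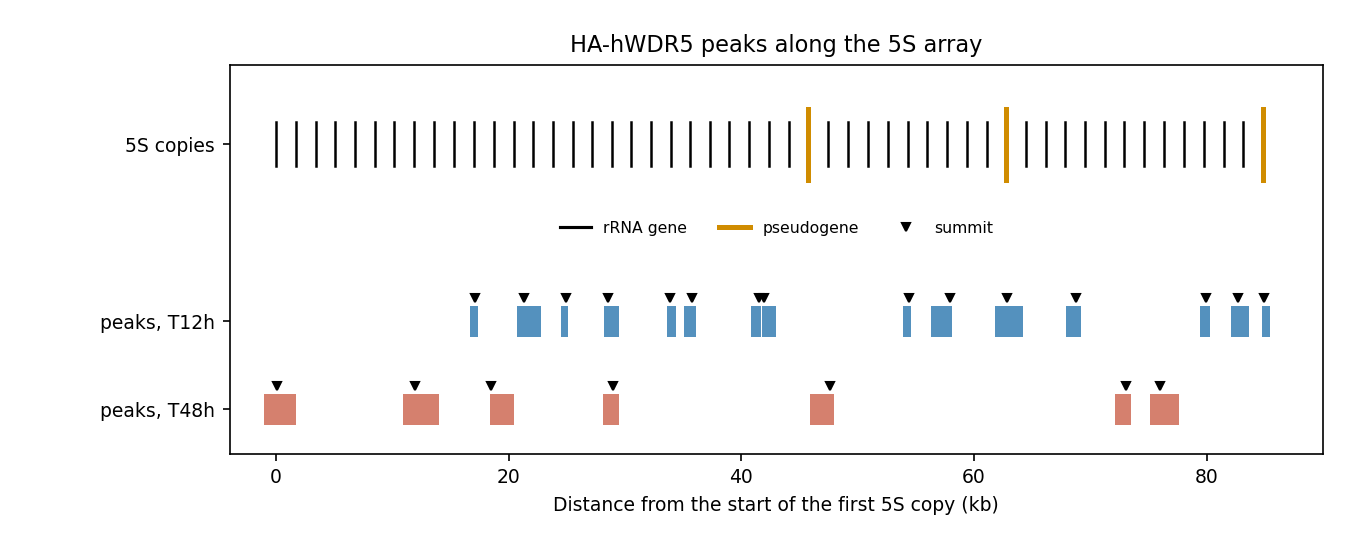
Positions of 5S copies (top, black for rRNA genes and orange for pseudogenes) and of HA-hWDR5 peaks (bars, with summits as triangles) along the chromosome 8 array, in kb from the start of the first copy. The 15 T12h peaks and 7 T48h peaks fall on mostly different copies, with 1 overlap near 29 kb.

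The array peaks were wide, held many tags in all and were low in fold. A tag is a read kept after duplicate removal, and the fold is the authors' ratio of the tag pile-up at the summit to the background that the peak caller MACS estimated there. At T12h the array peaks held 80 to 411 tags (median 136) over 628 to 2478 bp (median 1008). The other peaks of chromosomes 1 to 19 had a median of 35 tags over 352.5 bp. The median fold was 3.76 in the array against 7.385 for those other peaks. At T48h the 7 array peaks held 241 to 463 tags (median 308) over 1388 to 3037 bp (median 2133), with a median fold of 3.64 against 7.62 elsewhere. Per kb the excess of tags was smaller. The median at T12h was 128 tags per kb in the array against 99.8 in the other peaks of chromosomes 1 to 19. At T48h it was 152 against 110. Of the array peaks, 14 of 15 at T12h and 7 of 7 at T48h had a fold under 5, a level found in 10.9% and 10.8% of the other peaks.

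These peaks stood on a high background. The background of each peak was recovered from its deposited tag count and score, which fix the expected number of tags under the Poisson model of MACS. It is given as a multiple of the mean of the control library, 20.0 tags per kb at T12h and 22.7 at T48h. In the array the background was 3.42 to 5.39 times that mean at T12h (median 3.70) and 4.26 to 5.31 times at T48h (median 4.44). The median elsewhere was 1.30 and 1.28. A background of at least 2 times the mean was found in all 22 array peaks, and in 14.0% of the other T12h peaks and 13.8% of the other T48h peaks. The array thus carried more tags in the control library too, and fold and background are not independent measures, since the first is divided by the second. Over the whole width of a peak, the scaled ChIP tags exceeded the background by 1.44 to 1.81 times at T12h and by 1.27 to 1.55 times at T48h. The rest of chromosome 8 also stood above the genome in background, though less than the array. Over its 115 other T12h peaks and 34 other T48h peaks the median background was 1.80 and 1.73 times the mean, and 37.4% and 29.4% of them reached 2 times. The median fold of these chromosome 8 peaks was 5.56 at T12h and 5.935 at T48h, and 39.1% and 26.5% of them had a fold under 5. The part of the chromosome's background in the array values was not tested.

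**Figure D2:**
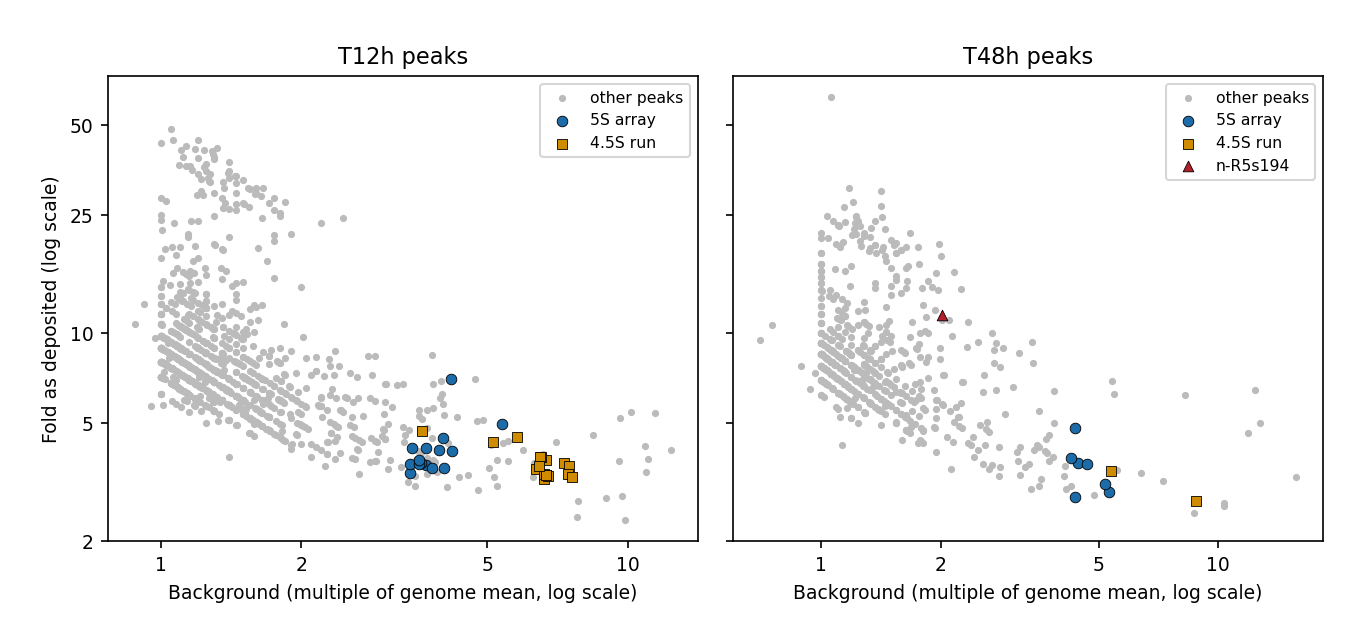
Deposited fold of each peak (y axis, log scale) against its background as a multiple of the control library's genome mean (x axis, log scale), for T12h (left) and T48h (right), with grey dots for all other peaks. The 5S array and the 4.5S region sit at backgrounds above 3 and, but for 1 T12h peak, at folds under 5, while n-R5s194 at T48h stands at a fold of 11.50 (2 peaks per list with a score at the upper limit have no background and are left out).

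Within the array the T12h peaks of highest fold lay at pseudogene copies. The peak at Gm23647, the last copy, had a fold of 7.03 with 108 tags over 692 bp. The peak at Rn5s-ps1 had a fold of 4.95 with 411 tags over 2478 bp, the most tags of the 15. Both summits lay inside the annotated copy, the only 2 of the 15 that did. Neither summit lay within 1 kb of an end of an rRNA gene, so the 16 genes counted at T12h leave them out. Neither copy had a T48h peak. The next folds at T12h were 4.44 at n-R5s121 (139 tags over 1008 bp), 4.13 at n-R5s149 (181 tags over 1518 bp) and 4.11 at n-R5s120 (106 tags over 822 bp). By tags, the peak shared by n-R5s112 and n-R5s113 (224 tags over 1984 bp), that of n-R5s134 (208 tags over 1732 bp) and that of n-R5s117 (186 tags over 1296 bp) followed Rn5s-ps1. The 13 T12h peaks at rRNA genes of the array were alike, with folds from 3.39 to 4.44.

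At T48h the highest array fold was 4.81 at n-R5s143 (241 tags over 1440 bp), the only one of the 7 peaks with a deposited false discovery rate of at most 5% (4.92%). The others had folds of 3.80 at n-R5s128 (308 tags), 3.66 at n-R5s100 (390 tags), 3.64 at n-R5s107 (463 tags), 3.12 at Gm25212 (410 tags), 2.92 at n-R5s117 (253 tags) and 2.81 at n-R5s111 (303 tags). The false discovery rates of these 6 ran from 6.61% to 23.0%, and those of the 15 T12h peaks from 2.23% to 5.87%. Rates were high across the T48h list. The median was 12.59% over the array peaks and 9.59% over the other T48h peaks of chromosomes 1 to 19. At T12h these medians were 3.07% and 3%. By fold, the array peaks ranked from 669 to 1172 of 1197 at T12h and from 587 to 656 of 660 at T48h. By score, the highest of them ranked 326 at T12h and 183 at T48h.

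Summits lay both at the copies and in the spacer between them. Of the 7 T48h summits, 5 lay inside a copy or within 60 bp of its ends, and of the 15 T12h summits, 6 did. At T12h 7 summits lay more than 400 bp from the centre of the nearest copy, in the spacer, against 1 at T48h. With copies a median of 1698 bp apart, much of the array lies that far from a centre. The share of array bases at either distance was not computed, so these counts do not show whether summits favour copies or spacer. The median distance to that centre was 210 bp over the 15 T12h summits and 93 bp over the 7 T48h summits. A recurring position was 87 to 107 bp from the centre on the side of higher coordinates, or 27 to 47 bp past the end of the copy, where 4 T12h summits (n-R5s110, n-R5s121, Gm26391 and Gm22291) and 3 T48h summits (n-R5s117, n-R5s128 and n-R5s143) lay. The annotation used gives no strand, so this side cannot be called upstream or downstream. This position was picked out after the summits had been seen.

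**Figure D3:**
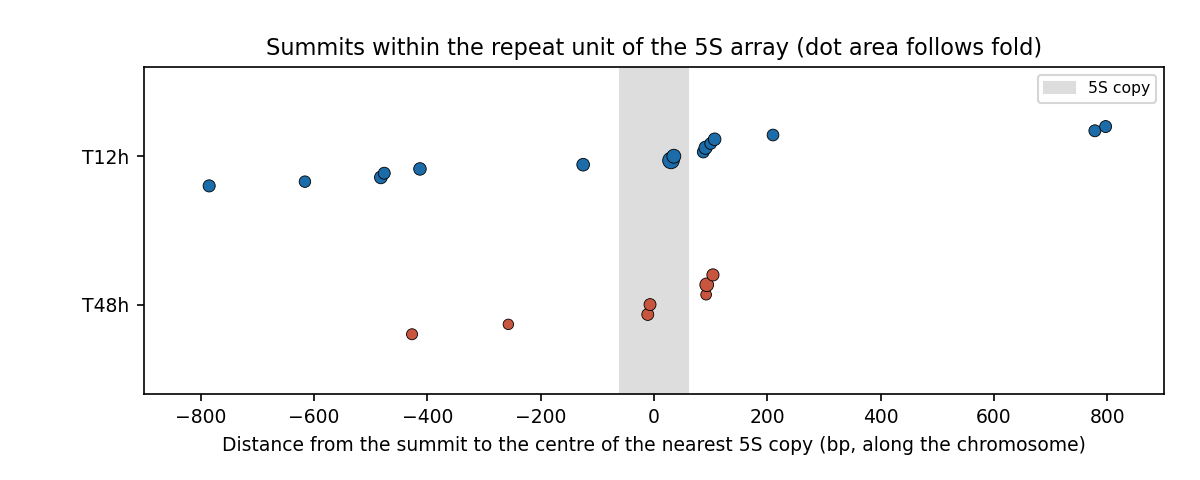
Distance in bp from each array summit to the centre of the nearest 5S copy, along the chromosome, for T12h (blue) and T48h (red), with dot area following fold, the grey band marking the copy, and height within a row used to separate dots. The 2 T12h summits in the band are those of Rn5s-ps1 and Gm23647, and 4 T12h and 3 T48h dots share a place just right of the band.

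The times shared 1 array peak, or 6.67% of the T12h and 14.3% of the T48h array peaks, against 19.01% and 36.2% of the other peaks of chromosomes 1 to 19. The lists differ in length, and this count is too small to set the array apart. The shared peak lay at n-R5s117, where T12h gave 186 tags in 1296 bp and T48h gave 253 tags in 1388 bp. The regions overlapped by 1292 bp, while the summits were 505 bp apart. Per kb and 1000000 filtered tags the ChIP level was 2.58 at T12h and 2.72 at T48h. The background was 4.20 times the mean at T12h and 5.31 times at T48h, and the fold was 4.03 and 2.92. At this copy the ChIP level was thus close in both libraries, while fold and background differed.

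In the same 1 Mb window, Rpl13, which encodes a protein of the large ribosomal subunit, had a peak at both times. At T12h its peak had 477 tags in 1124 bp and a fold of 24.42, and at T48h it had 356 tags in 1058 bp and a fold of 19.88. These folds are high for the lists, since the median over gene-end peaks of all genes but rRNA was 7.76 at T12h and 7.885 at T48h. The background at Rpl13 was 2.45 and 1.98 times the mean. Relative to the background over its whole width, the Rpl13 peak stood 8.42 times higher at T12h and 6.82 times higher at T48h, above every array peak. The other window peak, at Cdk10, which encodes a cyclin-dependent kinase, had a fold of 4.87 at T12h with 33 tags.

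Outside the array, 13 rRNA genes remained, and 1 had a gene-end peak at each time. At T12h this was Rn4.5s and at T48h n-R5s194. Of the 11 dispersed 5S genes, 0 had a peak at T12h (exact upper limit 28.5%) and 1 at T48h (9.09%, 0.230 to 41.3). The T48h peak of n-R5s194 (chromosome 3, 4338998 to 4339116, with no other annotated gene at that place) held 33 tags over 153 bp. Its fold was 11.50, rank 120 of 660, with a deposited false discovery rate of 5.19%. The background was 2.02 times the mean, and the summit lay inside the gene. The peak was narrower than any of the array peaks, and its tags stood 4.30 times above the background over its width. The nearest T12h summit was 872 kb away. For the other 10 dispersed 5S genes the nearest summit at either time was at least 54.6 kb away, that distance being for n-R5s33, which lies within Lrch3.

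The peak counted for Rn4.5s (chromosome 6, 47654921 to 47655094, within the gene model Gm40369) is 1 of a run. It held 843 tags over 4197 bp at T12h, with a fold of 3.75 and the summit 355 bp from the gene. Between the end of F830010H11Rik and the start of Rny3, a stretch of 184 kb chosen after the peaks had been seen, the T12h list had 17 peaks. Of these, 11 were 3962 to 5462 bp wide (median 4289), and 8 of the 16 steps from one start to the next were 4.1 to 4.5 kb. In 9 cases fewer than 100 bp separated a peak from the next, so long stretches were covered end to end. Together the 17 peaks held 11460 tags, or 11.3% of all tags in T12h peaks. Their tag density was close from peak to peak, at 145 to 231 tags per kb with a median of 203.

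The 4.5S region repeated the features of the 5S array. Folds ran from 3.24 to 4.68 (median 3.57), and the background from 3.63 to 7.60 times the mean (median 6.63). At T48h only 2 peaks were called in the region. The wider lay 97.8 kb from Rn4.5s, with 1180 tags over 4662 bp and a fold of 2.74, and it covered a T12h peak of 1028 tags over 4548 bp with a fold of 3.36. Per kb and 1000000 filtered tags this place stood at 4.07 at T12h and 3.77 at T48h, on a background of 7.45 and 8.77 times the mean. The second had 189 tags and a fold of 3.45 at T48h, against 157 tags and 4.33 at T12h. Where only T12h had a peak, the T48h tag level was not measured. The table used annotates no other 4.5S copy in this region, so these peaks could not be tied to single copies. Its 4 other 4.5S entries, pseudogenes on chromosomes 1, 9 and 13, had no gene-end peak at either time (0 of 4, exact upper limit 60.2%).

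**Figure D4:**
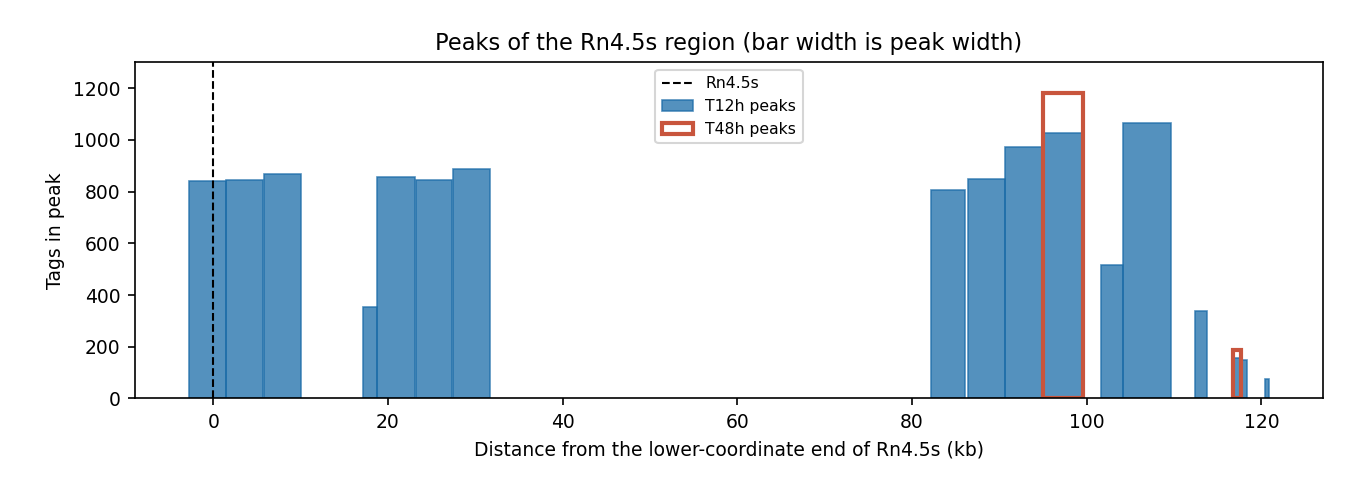
Tags (y axis) and extent (bar width) of peaks around Rn4.5s on chromosome 6, in kb from its lower-coordinate end, for T12h (filled blue) and T48h (red outline). T12h peaks of 3962 to 5462 bp stand side by side with 806 to 1067 tags each, and 2 T48h peaks overlay the T12h peaks near 98 and 117 kb.

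Rn28s1 had no peak at either time. It is annotated at 112627 to 113046 on chromosome 11, ahead of the first chromosome 11 peak at 3265861. Whether reads could map at that place was not tested, so its lack of a peak is no negative result for the gene. Rn18s-rs5 on chromosome 17, an 18S-related pseudogene and no member, lay 1087 kb from the nearest T12h summit and 127 kb from the nearest T48h summit. The peak lists therefore say nothing of the main 45S repeats.

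Other classes of small RNA genes give a scale for these counts. Of 391 tRNA genes, also transcribed by polymerase III, 9 had a gene-end peak at T12h (2.30%, 1.06 to 4.32) and 5 at T48h (1.28%, 0.416 to 2.96). These intervals hold the 1.82% and 0.689% of all genes. Of 931 snRNA genes 2 had such a peak at each time (0.215%, 0.0260 to 0.774), below the share of all genes at T12h. Of 1286 snoRNA genes, 20 had one at T12h (1.56%, 0.952 to 2.39) and 16 at T48h (1.24%, 0.713 to 2.01). The snoRNA interval holds the share of all genes at T12h and lies just above it at T48h. The median fold at T12h was 26.02 over 17 snoRNA gene peaks and 6.76 over 6 tRNA gene peaks. How many of the snoRNA gene peaks lie in ribosomal protein or other host genes was not counted. None of the 11 matched polymerase III genes such as Rn7sk, Rmrp, Rpph1, Rny1 and Rny3 had one at either time (0 of 11, exact upper limit 28.5%).

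Genes whose products make or bind 5S rRNA were read in the same way. Of 24 genes of 5S transcription, Gtf3c3, a subunit of the factor TFIIIC that binds the internal promoter, had a peak at T12h (fold 10.20, 22 tags) and Polr3g, a polymerase III subunit of pluripotent cells, had one at T48h (fold 6.65, 29 tags). That is 1 of 24 (4.17%) at each time, with a wide interval of 0.105 to 21.1, beside 3.06% and 1.11% of all protein-coding genes at T12h and T48h. Both of those shares lie within that interval. Gtf3a, which encodes the 5S-specific factor TFIIIA, had none. Of 8 genes of the 5S particle and 5S RNA handling, Rpl5 and Rpl11, whose proteins bind 5S rRNA and carry it into the large subunit, had peaks at both times. That is 2 of 8 at each time (25%, 3.19 to 65.1), beside the same 3.06% and 1.11% of all protein-coding genes. The other members, Rrs1, Rpf2, Ssb, Heatr3, Ddx21 and Ro60, had no peak at either time. At T12h the Rpl5 peak had 372 tags in 910 bp and a fold of 41.98, and at T48h it had 290 tags in 1119 bp and a fold of 14.10. For Rpl11 these were 296 tags in 897 bp with a fold of 27.09, and 257 tags in 1149 bp with a fold of 21.17. The background at Rpl5 was 1.32 times the mean at T12h and 2.25 at T48h, and at Rpl11 1.45 and 1.28. These folds lay above that of every peak in the 5S array, as did those of ribosomal protein genes at large. Of 77 genes taken as cytosolic ribosomal protein genes by symbol, 41 had a gene-end peak at each time (53.2%). The 77 include the like-named Rpl7l1 and Rpl22l1. The folds of the peaks at these 41 genes ran from 8.93 to 44.64 at T12h (median 33.16) and from 8.74 to 30.65 at T48h (median 19.82). Rpl5 and Rpl11 are among the 41 genes.

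The promoters of Rpl5 and Rpl11 (RefSeq, GRCm38.p6, the 250 bases before the start) are shown because they are the sites of highest fold among the genes tied to 5S rRNA. Bases in capitals lie under the T12h peak.
Rpl5 promoter, chr5:107900278-107900527, plus strand: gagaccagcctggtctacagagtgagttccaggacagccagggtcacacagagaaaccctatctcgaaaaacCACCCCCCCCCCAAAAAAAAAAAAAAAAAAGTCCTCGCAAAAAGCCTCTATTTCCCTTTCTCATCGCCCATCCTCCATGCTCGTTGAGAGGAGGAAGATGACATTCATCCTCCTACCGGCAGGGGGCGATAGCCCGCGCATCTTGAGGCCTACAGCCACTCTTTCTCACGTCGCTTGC
Rpl11 promoter, chr4:136053394-136053643, minus strand: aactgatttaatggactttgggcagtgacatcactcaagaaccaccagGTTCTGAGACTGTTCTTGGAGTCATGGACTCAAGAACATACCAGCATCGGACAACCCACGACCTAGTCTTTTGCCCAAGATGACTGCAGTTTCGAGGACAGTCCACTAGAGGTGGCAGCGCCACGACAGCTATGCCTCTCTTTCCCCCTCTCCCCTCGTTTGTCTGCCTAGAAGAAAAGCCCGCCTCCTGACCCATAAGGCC
The T12h peak covered 178 of the 250 bases at Rpl5 and 202 at Rpl11, and the T48h peak covered 213 and 250. All 4 summits lay downstream of these windows, 227 and 265 bp after the start of Rpl5 and 188 and 219 bp after that of Rpl11, for T12h and T48h. The start used here for Rpl5 is 107900528, while its annotated gene begins at 107900508, so the last printed bases lie within that gene. From the gene end the Rpl5 summits lay 247 and 285 bp. GC content was 52.8% and 52.4%. No sequence of a 5S or 4.5S gene is printed, since the tables used here hold none.

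Among 13 matched genes of 45S transcription by polymerase I, Taf1d, a subunit of the promoter factor SL1, had a peak at T12h (fold 6.41, 32 tags). That is 1 of 13 (7.69%, 0.195 to 36.0), and 0 had one at T48h (exact upper limit 24.7%). The 3.06% and 1.11% of all protein-coding genes at T12h and T48h lie within these ranges. Of 53 genes of rRNA processing and ribosome assembly, 4 had one at T12h (7.55%, 2.09 to 18.2) and 1 at T48h (1.89%, 0.0478 to 10.1), intervals that hold the 3.06% and 1.11% of all protein-coding genes. Dis3, a nuclease of the exosome, had a peak at both times (folds 10.71 and 6.89). Exosc10, another exosome nuclease (9.67), the RNA helicase gene Ddx52 (7.57) and Rrp1b (6.16), which encodes a nucleolar protein, had one at T12h. These peaks lay on backgrounds of 1.00 to 1.45 times the mean, unlike those of the array.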

How the data were processed

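The series holds 1 anti-HA ChIP library and 1 input library at each rescue time. Each ChIP library came as 1 peak table, which the authors made with MACS 1.4.2 against 1 control library with peaks kept under a p of 1e-05 and 1 tag kept per position, per the file headers. The submitters' processing notes name mm10, Bowtie2, SAMtools 1.5, HOMER 4.9.1 and deepTools. After filtering, 55539917 ChIP and 54011542 control tags were left at T12h, and 67116740 and 61209779 at T48h. The T12h list has 1197 peaks and the T48h list 660. Per peak the authors deposited a tag count (not normalised), a score (the negative log10 of the p-value times 10), a fold (the ratio to the local background) and a false discovery rate in percent.

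Summits (start + summit - 1) were matched to gene ends within 1 kb, with RefSeq genes of GRCm38.p6. Backgrounds were recovered by scaling ChIP tags to the control total and solving the Poisson tail for the score. The summit height this implies was whole within 0.05 for 94.6% of 1195 T12h peaks and 93.8% of 658 T48h peaks. The work used scipy 1.17.1 and pandas 2.3.3 under Python 3.11.15, with figures from matplotlib 3.10.9, and the functions were tested on simulated data. Intervals are exact (Clopper-Pearson) 95% binomial intervals. With 1 library per time no test was run. The members and lists were chosen with earlier results of these data known. Named were all counted rRNA genes outside the array, the array genes with the 5 highest folds or tag counts or with shared peaks, and up to 6 list members with a peak. Pseudogene copies, n-R5s88, Rpl13, Cdk10 and the 4.5S region were chosen after their values were seen. Polr1f, Polr1g, Polr1h, Dkc1, Utp14a and Rn7sl1 of the lists were not matched on chromosomes 1 to 19. Alternatives covered the distance, the gene counted, the score, the false discovery rate, the window and the overlap.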

Additional observations from a re-analysis of the deposited data

How the results depend on the processing

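Counts in the array depended on the distance and on the score limit. With summits within 500 bp, 10 rRNA genes were counted at T12h against 16 in the main count, and 8 at T48h, the same as in the main count. Within 5 kb 38 were counted at T12h and 31 at T48h, since a wider reach takes in more copies per peak. A score of at least 100 left 2 rRNA genes at T12h (n-R5s149 and Rn4.5s) and 1 at T48h (n-R5s194), 3 and 1 peaks in the chromosome 8 window, and a median fold of 11.50 at T48h, which is that of n-R5s194 alone. A false discovery rate of at most 5% left 1 rRNA gene and 1 window peak at T48h. With summits within 500 bp of each other in place of overlap, 0 peaks at rRNA genes were shared in the T12h list and 0 in the T48h list. Of 28 recomputed values, 16 were within 1.5 times the main value and 12 were not. No paired analysis was possible because each rescue time had 1 ChIP library.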

Other observations

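Dispersed 5S copies annotated as pseudogenes were outside the rule, and 1 of 14 had a gene-end peak, at both times (7.14%, 0.181 to 33.9). That interval holds the 1.82% and 0.689% of all annotated genes with such a peak at T12h and T48h. It also holds the 0.416% and 0.259% of all pseudogenes. The copy with the peak was n-R5s88 (chromosome 9, 102127887 to 102128005). At T12h its peak held 22 tags over 272 bp with a fold of 12.99, and at T48h 26 tags over 206 bp with a fold of 17.03, rank 138 of 1197 and rank 63 of 660. The deposited false discovery rate was 3.79% at T12h and 5.17% at T48h. The background was 1.10 and 1.00 times the control mean, against 3.42 to 5.39 times in the array. Both summits lay inside the copy, 52 and 55 bp from its lower-coordinate end. At n-R5s194, the other dispersed copy with a peak, the summit also lay inside the copy. These narrow peaks, with 22 to 33 tags each, had higher folds than each peak at the 51 copies of the array.

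Wide peaks of low fold were not limited to the 5S array and the 4.5S region. Of 105 T12h peaks with a fold under 5 and a width of at least 500 bp, 14 lay in the 5S array and 17 in the 4.5S region, and 74 lay elsewhere. Of 51 such T48h peaks, 7 lay in the array, 2 in the 4.5S region and 42 elsewhere. The array and the 4.5S region held 15 and 17 of all 1197 T12h peaks, and 7 and 2 of all 660 T48h peaks. Whether the peaks elsewhere lie at other repeated genes was not tested. The rRNA genes of chromosome X, n-R5s2 and n-R5s13, lay 1734 and 10891 kb from the nearest T12h summit and 984 and 1587 kb from the nearest T48h summit.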
